A study of Mus musculus with 24 samples.

Results

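Stathmins, structural microtubule-associated proteins (MAPs) and collapsin response mediator proteins (CRMPs) were measured as transcripts in sensory neurons sorted from L4 dorsal root ganglia. The 10 genes Stmn1, Stmn2, Stmn3, Stmn4, Map1b, Map2, Mapt, Dpysl2, Dpysl3 and Dpysl5 were taken by symbol from 47643 gene identifiers, and each symbol matched 1 identifier. All 10 passed the filter on low counts, which kept 17178 genes. RNA sequencing compared 4 control with 4 Nav-Tsc2 mice, and each mouse gave 3 libraries of 100 sorted cells that were summed. Control mice carried Nav1.8-Cre, Rosa26-ZsGreen and Tsc2 flox/+. Nav-Tsc2 mice carried the same Cre and reporter with Tsc2 flox/null, so that in Cre-expressing cells the controls kept 1 intact copy of Tsc2, a brake on the growth kinase complex mTORC1, and the Nav-Tsc2 mice kept none. Both genotypes were aged 8 to 9 weeks, were on a mixed C57BL/6 and AJ background, held 2 males and 2 females, and had the sciatic nerve crushed on the other side 3 days earlier. The Nav1.8 promoter drives Cre in nociceptors, the neurons that sense painful stimuli, and also in part of the myelinated sensory neurons, and the sort took any cell with the green reporter.

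Microtubules are hollow polymers of tubulin that stiffen the axon and carry its transport. Stathmins bind free tubulin dimers and favor disassembly, whereas MAPs such as MAP1B, MAP2 and tau (Mapt) bind the polymer and stabilize or space it. CRMPs bind tubulin and other cytoskeletal proteins and take part in growth-cone guidance and axon extension, and the kinases GSK3B and CDK5 phosphorylate both MAPs and CRMPs. In adult sensory neurons Stmn2 (SCG10) and Map1b are known as growth-cone genes.

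The stathmins share a tubulin-binding domain, and the reads were only 50 bases long, so the coding sequences are shown where the genes are most alike. The sequences are from the main annotated transcripts (GENCODE vM21, GRCm38), and capitals mark bases that differ from Stmn2. The 150 bases lie in exons 3 and 4 of Stmn2 (chr3:8545710-8554905, plus strand), of Stmn1 (chr4:134470804-134472917, plus strand) and of Stmn3 (chr2:181307294-181308756, minus strand), and in exons 4 and 5 of Stmn4 (chr14:66356882-66357959, plus strand).
Stmn2: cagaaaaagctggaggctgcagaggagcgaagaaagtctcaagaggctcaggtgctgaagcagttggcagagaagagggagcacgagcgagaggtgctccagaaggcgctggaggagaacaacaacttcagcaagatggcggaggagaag
Stmn1: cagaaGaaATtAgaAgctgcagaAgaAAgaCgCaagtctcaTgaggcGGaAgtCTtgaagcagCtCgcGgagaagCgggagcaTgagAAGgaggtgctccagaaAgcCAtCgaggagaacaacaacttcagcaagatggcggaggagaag
Stmn3: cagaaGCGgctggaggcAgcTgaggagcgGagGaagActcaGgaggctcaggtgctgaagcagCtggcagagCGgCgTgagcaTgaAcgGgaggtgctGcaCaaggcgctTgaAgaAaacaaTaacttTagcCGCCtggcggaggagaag
Stmn4: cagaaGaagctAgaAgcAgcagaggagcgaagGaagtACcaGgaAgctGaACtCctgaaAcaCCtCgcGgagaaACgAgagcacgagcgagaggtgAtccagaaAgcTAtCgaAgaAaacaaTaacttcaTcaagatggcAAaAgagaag
Stmn1 and Stmn3 each differed from Stmn2 at 28 of these 150 bases, and Stmn4 differed at 33. The longest stretch that any pair of stathmin coding sequences had in common was 43 bases, between Stmn1 and Stmn2, so no full read within the coding sequence fits both of a pair without a mismatch. The other pairs had at most 21 bases in common.

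Across whole transcripts, none of the 50-base windows of Stmn3, Stmn4, Map1b, Mapt, Dpysl2, Dpysl3 or Dpysl5 occurred in another gene. The exception of size was Stmn1, where 18.9% of windows also occurred in other genes, mainly the pseudogene Gm11223 (4.61 to 6.27 CPM in the 8 mice, counts scaled to a common library total), so the Stmn1 level is uncertain to that extent.

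Library totals ranged from 8339220 to 34228180 counts in genes, and totals per mouse from 47959617 to 61290435. Genes with a count per library numbered 15925 to 18544 in control and 17891 to 20466 in Nav-Tsc2 libraries. Control libraries varied more than Nav-Tsc2 libraries: the median correlation of a library with the others of its genotype was r = 0.841 to 0.928 in control and 0.932 to 0.963 in Nav-Tsc2 libraries (8451 genes), and library A of control mouse 3 had the lowest. Tsc2, the deleted gene, had 13.4, 24.7, 21.5 and 24.1 normalized CPM in the control mice and 8.70, 8.51, 7.30 and 10.95 CPM with Nav-Tsc2 (log2 fold change -1.24, SE 0.22, edgeR adjusted p = 0.0040). Scn10a, the gene of Nav1.8, was at 670.4 and 607.8 CPM in control and Nav-Tsc2 mice. All 8 nociceptor markers were tested, and Calca, the most abundant, went from 10162 to 2557 CPM (log2 fold change -1.99, edgeR adjusted p = 0.00215). Markers of myelinated neurons summed to 478.4 to 993.2 CPM and satellite glia markers to 318.4 to 492.5 CPM over the 8 mice.

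Of the 10 genes, 3 fell (Map1b, Mapt and Dpysl2) and 1 rose (Stmn4) in Nav-Tsc2 mice. The word called is used for a gene that passed 2 limits, an edgeR adjusted p under 0.05 and a change of more than 0.5 on the log2 scale in either direction. Among all 17178 genes tested, 17.1% were called, 8.00% lower and 9.12% higher, so changes were common in this comparison. DESeq2 called 21.4% and limma on the 24 libraries 23.5% of all genes, and 33.7% had an unadjusted p under 0.05 in edgeR. The limma fit used 1 correlation of 0.0631 between libraries of a mouse for all genes. Its p-values, here and below, thus treat the 3 libraries of a mouse as nearly independent. With no fold limit Dpysl5 passed as well, and 21.1% of all genes did so. The median log2 fold change of the 10 genes was -0.11, beside 0.01 over all tested genes. Values of the control and Nav-Tsc2 mice did not overlap for 6 of the 10 genes (Stmn2, Stmn4, Map1b, Mapt, Dpysl2 and Dpysl3), and the same held for 26.9% of all genes tested.

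**Figure D1:**
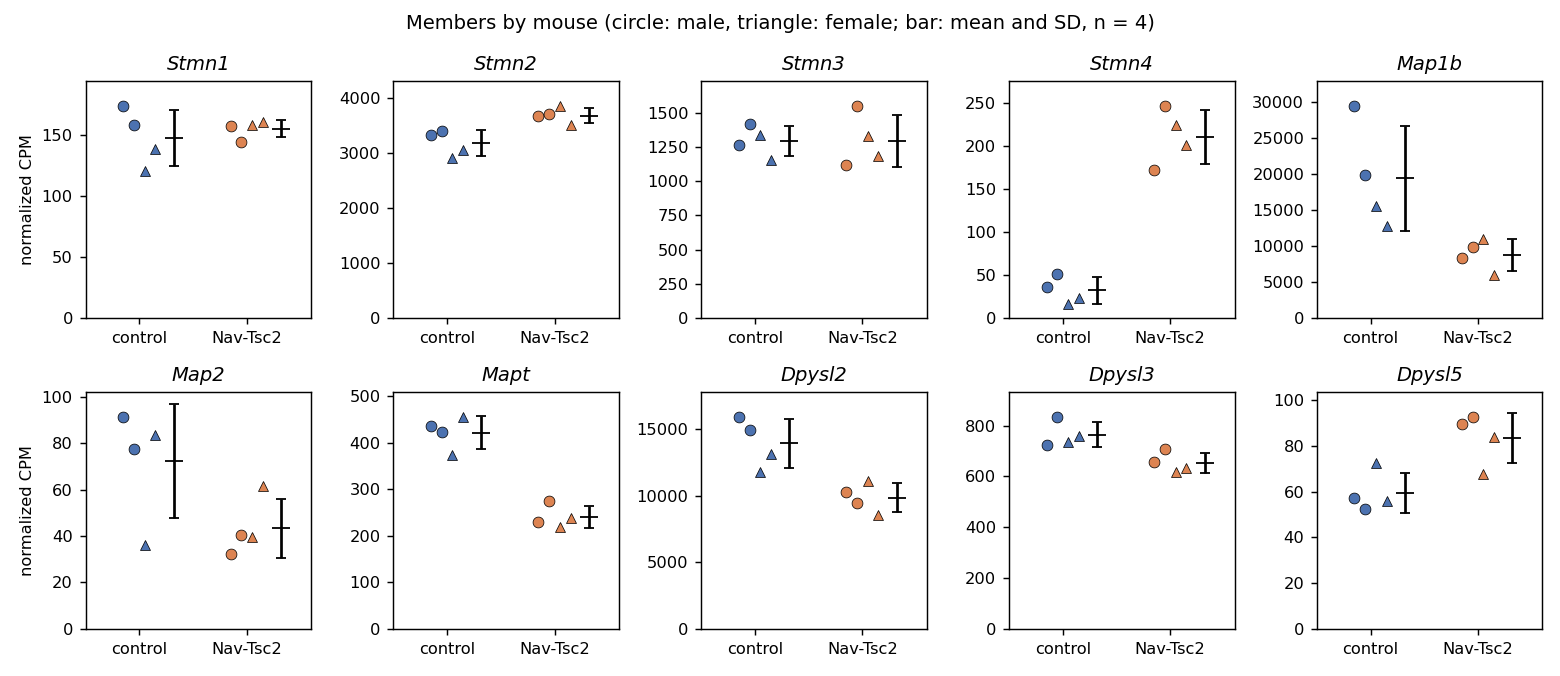
Normalized CPM (y axis, from 0) of the 10 genes in 4 control and 4 Nav-Tsc2 mice, with 1 point per mouse, circles for males and triangles for females, and the mean ± SD beside each group. Stmn4 lies between 17.1 and 51.8 CPM in control and between 172.7 and 246.3 CPM in Nav-Tsc2 mice, while Map1b, Mapt and Dpysl2 lie lower in every Nav-Tsc2 mouse than in any control mouse.

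Of the 4 stathmins 1 was called, Stmn4, and the same number was called by DESeq2 and by limma. Stmn4 (chr14:66344296-66361680, plus strand) encodes RB3, a neuronal stathmin that is anchored to Golgi and vesicle membranes. It had 36.3, 51.8, 17.1 and 23.98 CPM in the control mice and 172.7, 246.3, 224.2 and 200.9 CPM in the Nav-Tsc2 mice. The means were 32.3 ± 15.3 and 211.0 ± 31.6 CPM (SD, n = 4 mice each), a 6.54-fold rise (95% interval 4.03 to 10.6). The log2 fold change was 2.71 (SE 0.31, edgeR adjusted p = 0.000428). Every Nav-Tsc2 library was above every control library: 12 control libraries had 7.35 to 73.2 CPM with a median of 25.6, and 12 Nav-Tsc2 libraries had 138.0 to 322.6 CPM with a median of 196.2. No other of the 10 genes separated all libraries. The share of all tested genes that did so was not counted, and the libraries are 3 per mouse, not independent replicates.

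Stmn2 encodes SCG10, the main growth-cone stathmin and a marker of regenerating sensory axons. Control mice had 3328, 3398, 2900 and 3057 CPM of Stmn2, and Nav-Tsc2 mice had 3664, 3695, 3838 and 3497 CPM. The lowest Nav-Tsc2 mouse lay above the highest control mouse, but the difference was small and did not pass (log2 fold change 0.21, SE 0.07, edgeR adjusted p = 0.0692). Its adjusted p was under 0.05 with sex as a covariate (0.0474) and by limma on the 24 libraries (0.0425), within the fold limit in both. Stmn3 (SCLIP) is a further neuronal stathmin. It had 1264, 1417, 1336 and 1153 CPM in control and 1115, 1546, 1327 and 1182 CPM in Nav-Tsc2 mice, and the groups covered the same range. Its log2 fold change was -0.00034 with a 95% interval from -0.25 to 0.25, so a change beyond 1.19-fold either way lay outside the interval. Stmn1, the cytosolic stathmin of proliferating and immature cells, had 173.2, 157.7, 120.4 and 138.0 CPM in control and 157.3, 144.6, 158.1 and 160.3 CPM in Nav-Tsc2 mice. For Stmn1 the log2 fold change was 0.07 (SE 0.11, edgeR adjusted p = 0.706), with a 95% interval from -0.18 to 0.33.

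Levels of different genes were compared as RPKM, the CPM per 1000 bases of exon, as a description without a test. By this measure Stmn3 was the most abundant stathmin, at 63.3% ± 2.43 (SD, n = 4) of the summed stathmin RPKM in control and 57.1% ± 2.91 in Nav-Tsc2 mice. Stmn2 made up 31.5% ± 1.77 and 33.2% ± 2.69, and Stmn1 made up 4.26% ± 0.58 and 4.10% ± 0.54. Stmn4 was the least abundant stathmin in control mice, at 0.92% ± 0.38, and stood above Stmn1 in Nav-Tsc2 mice, at 5.53% ± 0.37. The summed stathmin RPKM was 1798 ± 131.6 in control and 1984 ± 192.3 in Nav-Tsc2 mice, and these ranges overlapped (1645 to 1963 and 1808 to 2224). With the longest transcript in place of all exons, Stmn3 and Stmn2 came closer. They were at 51.0% and 41.7% in control mice, and at 45.1% (42.1 to 49.3) and 42.9% (39.2 to 46.1) in Nav-Tsc2 mice, where they overlapped. By that length Stmn4 (5.44% to 6.56%) also overlapped with Stmn1 (4.94% to 6.40%) in Nav-Tsc2 mice.

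**Figure D2:**
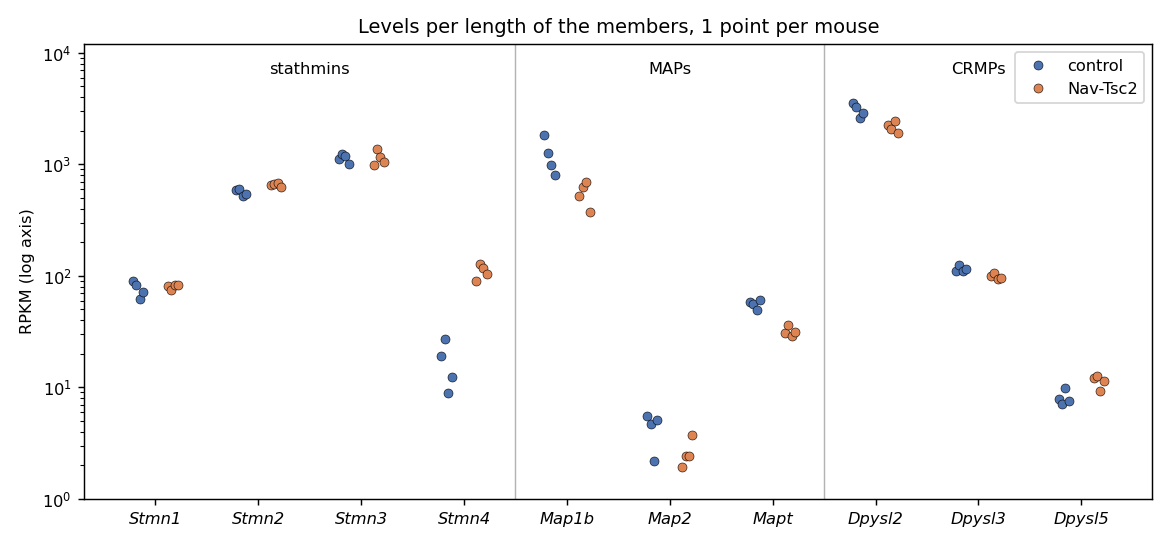
RPKM of the 10 genes on a log axis, with 1 point per mouse, 4 control and 4 Nav-Tsc2 mice, grouped by family. Dpysl2 stands highest in both genotypes (means 3083 and 2176 RPKM), Map2 stands lowest (4.39 and 2.64 RPKM), and Stmn4 moves from the level near Dpysl5 to that of Dpysl3.

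Each of the MAPs had a lower mean in Nav-Tsc2 mice, and Map1b and Mapt passed the test. MAP1B is the MAP that is expressed early in growing axons and that keeps axonal microtubules dynamic. Map1b (chr13:99421446-99516540, minus strand) was at rank 1 of the 17178 tested genes by CPM in control mice and at rank 4 in Nav-Tsc2 mice. CPM does not correct for length, and Map1b has 15846 bases of exon. By RPKM Map1b was at rank 31 in control and rank 74 in Nav-Tsc2 mice. Its values were 29331, 19833, 15563 and 12738 CPM in control and 8315, 9899, 10922 and 5924 CPM in Nav-Tsc2 mice. Every Nav-Tsc2 mouse was below every control mouse, although the control mice differed among themselves by up to 2.30-fold. The fall was by 54.7% (log2 fold change -1.14, SE 0.26, 95% interval -1.74 to -0.55, edgeR adjusted p = 0.0141). By library the groups overlapped: control libraries had 8567 to 33334 CPM (median 19542) and Nav-Tsc2 libraries had 4748 to 14182 CPM (median 8509), and 6 of 12 Nav-Tsc2 libraries lay below the lowest control library, which was library A of control mouse 3. Left out, it gave a Map1b log2 fold change of -1.19 (edgeR adjusted p = 0.00906).

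Mapt encodes tau, the MAP of axons that is best known from neurofibrillary tangles. Mapt (chr11:104231390-104332090, plus strand) had 436.6, 421.8, 373.1 and 454.6 CPM in control and 229.7, 273.8, 219.8 and 238.2 CPM in Nav-Tsc2 mice. The groups were far apart relative to the spread of the mice, with means of 421.5 ± 35.0 and 240.4 ± 23.5 CPM (SD, n = 4 each). The decrease was by 43.0% (log2 fold change -0.81, SE 0.10, edgeR adjusted p = 0.000481), and 10 of 12 Nav-Tsc2 libraries lay below the lowest control library. That library was again library A of control mouse 3 (265.5 CPM). The next lowest control library had 330.6 CPM and the highest Nav-Tsc2 library 292.1 CPM.

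Map2 encodes the MAP of dendrites and cell bodies. Control mice had 91.2, 77.6, 36.3 and 83.5 CPM of Map2 and Nav-Tsc2 mice had 32.1, 40.3, 39.6 and 61.5 CPM. Control mouse 3 lay within the Nav-Tsc2 range, and the other control mice lay above it. The log2 fold change of -0.73 (SE 0.29) did not pass (edgeR adjusted p = 0.101). This call rested on the test and on control mouse 3: by DESeq2 the change passed (log2 fold change -0.75, adjusted p = 0.0279), and it passed in edgeR without control mouse 3 (log2 fold change -0.96, adjusted p = 0.00953).

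Per length, Map1b made up 94.9% ± 1.76 (SD, n = 4) of the summed RPKM of the 3 MAPs in control and 93.8% ± 1.78 in Nav-Tsc2 mice. Mapt made up 4.76% ± 1.63 and 5.68% ± 1.52, and Map2 made up 0.36% ± 0.16 and 0.49% ± 0.28. The shares thus overlapped between genotypes while the sum went from 1283 ± 459.3 RPKM in control to 587.7 ± 137.0 RPKM in Nav-Tsc2 mice.

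**Figure D3:**
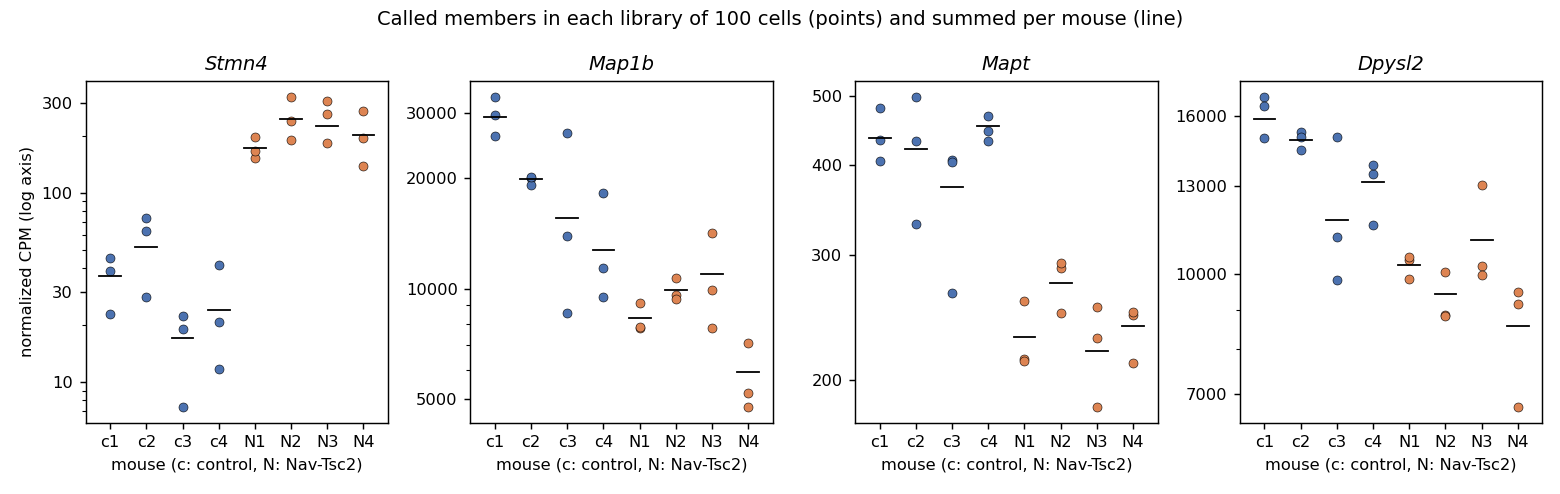
Normalized CPM (log axis) of the 4 called genes in each library, with 3 points per mouse and a line at the value of the summed libraries, for control mice 1 to 4 (c1 to c4) and Nav-Tsc2 mice 1 to 4 (N1 to N4). Stmn4 libraries do not overlap between genotypes (at most 73.2 CPM in control, at least 138.0 CPM in Nav-Tsc2), whereas single Map1b, Mapt and Dpysl2 libraries do.

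Of the 3 CRMPs, Dpysl2 fell, and Dpysl3 and Dpysl5 were not called. Dpysl2 encodes CRMP2, which carries tubulin dimers to growing microtubules and promotes axon elongation. Dpysl2 (chr14:66802864-66868688, minus strand) was at rank 2 by CPM in control mice and at rank 3 in Nav-Tsc2 mice. By RPKM it was at rank 6 and rank 11. It had 15901, 14914, 11756 and 13168 CPM in control and 10269, 9430, 11084 and 8567 CPM in Nav-Tsc2 mice, with no overlap between the groups. The decrease was by 29.4% (log2 fold change -0.50, SE 0.11, 95% interval -0.76 to -0.25, edgeR adjusted p = 0.0124). Dpysl2 lay at the fold limit, at -0.502 before rounding, and it fell short of that limit with the adjusted p still under 0.05 in several alternatives: with sex as a covariate (-0.49), without control mouse 1 (-0.43) or 2 (-0.47), and without Nav-Tsc2 mouse 2 (-0.49) or 4 (-0.44).

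Dpysl3 encodes CRMP4, which bundles actin and binds microtubules. Control mice had 724.7, 833.0, 735.3 and 759.8 CPM of Dpysl3, and Nav-Tsc2 mice had 655.1, 707.9, 618.3 and 631.2 CPM. All Nav-Tsc2 mice lay below all control mice, and the difference of -0.22 (log2, SE 0.08) did not pass (edgeR adjusted p = 0.0681). Its adjusted p was under 0.05 by DESeq2 (0.0288), with upper-quartile scaling (0.0415) and by limma on the 24 libraries (0.0125), and the difference stayed within the fold limit in each. Dpysl5 encodes CRMP5, a CRMP of immature neurons. It had 57.4, 52.6, 72.4 and 55.9 CPM in control and 89.8, 92.6, 68.0 and 84.1 CPM in Nav-Tsc2 mice, and only Nav-Tsc2 mouse 3 lay within the control range. The log2 fold change of Dpysl5 was 0.49 (SE 0.13, edgeR adjusted p = 0.0284), within the fold limit. Beyond that limit it came without control mouse 3 (0.59, adjusted p = 0.00987) and without Nav-Tsc2 mouse 3 (0.58, adjusted p = 0.0168). Without any 1 of the other 6 mice the adjusted p was above 0.05, from 0.0642 to 0.0841.

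Dpysl2 made up 96.1% ± 0.51 (SD, n = 4) of the summed CRMP RPKM in control and 95.1% ± 0.66 in Nav-Tsc2 mice. Dpysl3 made up 3.64% ± 0.45 and 4.36% ± 0.56, and Dpysl5 made up 0.26% ± 0.07 and 0.50% ± 0.10. The sum over the 3 genes was 3206 ± 407.9 RPKM in control and 2287 ± 237.2 RPKM in Nav-Tsc2 mice.

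**Figure D4:**
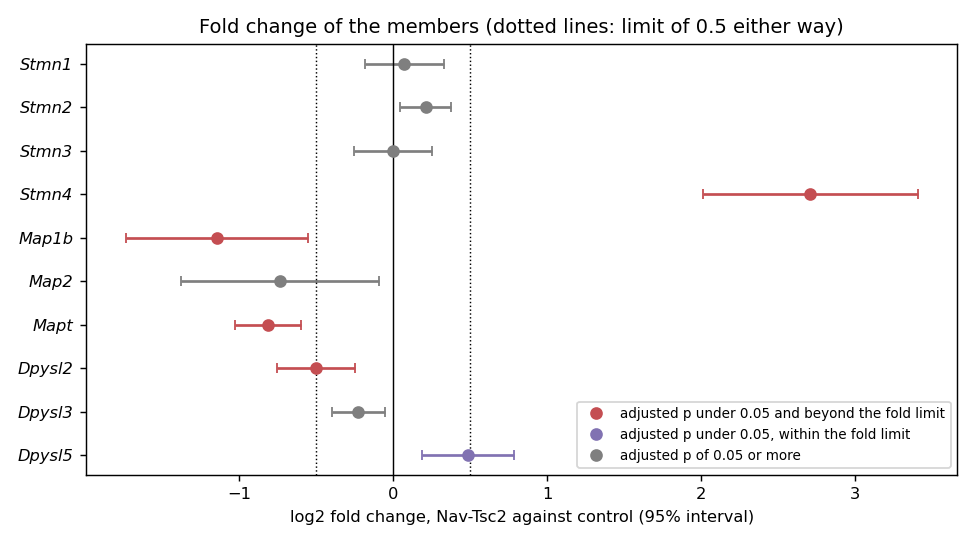
Log2 fold change of the 10 genes, Nav-Tsc2 against control, with 95% intervals from edgeR and dotted lines at 0.5 either way. Stmn4 (2.71) lies furthest on the higher side, where the intervals of Dpysl5 (0.19 to 0.79) and Stmn2 (0.05 to 0.38) also lie above 0 and that of Dpysl5 crosses the limit. Map1b (-1.14) and Mapt (-0.81) lie wholly beyond the limit on the lower side, and the interval of Dpysl2 (-0.76 to -0.25) crosses it. The intervals of Map2 (-1.38 to -0.09) and Dpysl3 (-0.40 to -0.05), which were not called, also lie below 0, and that of Map2 crosses the limit.

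Ordered by RPKM over the 3 families, control mice had Dpysl2, Map1b, Stmn3, Stmn2, Dpysl3, Stmn1, Mapt, Stmn4, Dpysl5 and Map2 from high to low. Neighbors overlapped between mice for Map1b (804 to 1851) with Stmn3 (1015 to 1248), and for Stmn4 (8.90 to 27.1) with Dpysl5 (7.14 to 9.81), and for no other neighboring pair. In Nav-Tsc2 mice the order was Dpysl2, Stmn3, Stmn2, Map1b, Stmn4, Dpysl3, Stmn1, Mapt, Dpysl5 and Map2. There Stmn2 (624 to 685) overlapped with Map1b (374 to 689), and Stmn4 (90.1 to 128.6) with Dpysl3 (93.6 to 107.1). These orders rest on the length used. With the longest transcript, Dpysl3 (mean 139.3) and Stmn1 (139.0) were level and overlapped in control mice, as did Dpysl5 (11.5) and Map2 (11.5). In Nav-Tsc2 mice Stmn1 (136.4 to 151.2) then stood above Dpysl3 (112.8 to 129.2) and overlapped with Stmn4 (126.9 to 181.0), Stmn3 (981 to 1361) overlapped with Stmn2 (1024 to 1125), and Map1b (502 to 925) lay below Stmn2. Together the 10 genes took 3.93% of all counts in genes in control and 2.50% in Nav-Tsc2 mice, most of it from Map1b (1.94% and 0.876%) and Dpysl2 (1.39% and 0.984%). In summed cells, fewer cells that express a gene and less RNA of it per cell cannot be told apart.

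The spread between libraries of the same mouse differed by gene. It was largest for Stmn4 (SD 0.60 on the log2 scale of CPM + 0.5) and Map1b (0.39) and smallest for Dpysl3 (0.16). Between mice of a genotype the SD was 0.51 for Stmn4, 0.51 for Map2, 0.46 for Map1b and 0.08 for Stmn2, on the same scale.

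Within each sex there were 2 mice per genotype, and the direction of the 4 called genes there follows from the separation of all 8 mice. The log2 ratio of mean CPM was 2.25 in males and 3.37 in females for Stmn4, -1.43 and -0.75 for Map1b, -0.77 and -0.85 for Mapt, and -0.65 and -0.34 for Dpysl2. In the test of the genotype by sex interaction, 0 of the 10 genes passed (edgeR adjusted p from 0.383 to 0.995), beside 0.00582% of all genes. At an unadjusted p under 0.05, 2 of the 10 did so (Stmn1 with p = 0.0277 and Stmn4 with p = 0.0123 in edgeR's test), beside 9.22% of all genes.

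A wider list of 58 genes was described in the same fit, of which 7 fell and 10 rose, with a median log2 fold change of 0.07. That is 17 of 58 genes, beside the 17.1% called among all tested genes. Of 12 other MAPs, 3 fell and 3 rose, and of those that rose Dcx lost its call in 8 of 17 alternatives. Map7d2, a neuronal MAP of the MAP7 family that recruits kinesin-1, fell from 1363 ± 412.4 to 318.5 ± 50.3 CPM (SD, n = 4; log2 fold change -2.10, edgeR adjusted p = 0.000252). Its relative Map7d1 rose from 58.5 ± 11.0 to 123.7 ± 17.4 CPM (log2 fold change 1.08, edgeR adjusted p = 0.00125). In both cases the mice of the genotypes did not overlap. Of the 2 other CRMPs, Crmp1 rose from 118.5 ± 11.96 to 219.7 ± 26.0 CPM (log2 fold change 0.89, edgeR adjusted p = 0.000603) and Dpysl4 did not pass.

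Among 11 microtubule end-binding genes 2 fell and 0 rose. For this list and those that follow, 8.00% of all tested genes were called lower and 9.12% higher, 17.1% in all. Clasp2, one of the end-binding genes that fell, lost its call in 7 of 17 alternatives. The strongest by adjusted p was Mapre2 (EB2), which went from 514.2 ± 55.5 to 291.3 ± 18.4 CPM (SD, n = 4; log2 fold change -0.82, edgeR adjusted p = 0.000432). None of the 6 severing enzymes was called by edgeR, DESeq2 or limma, and 0 of them had an unadjusted p under 0.05 in edgeR (33.7% of all genes). Of 10 tubulin-modifying genes 1 rose: Vash2, which removes the terminal tyrosine of alpha-tubulin, went from 5.41 ± 2.93 to 18.3 ± 1.62 CPM (log2 fold change 1.75, edgeR adjusted p = 0.00604). Of 13 kinase genes, including activators of CDK5, 2 fell and 3 rose. Of these 5 calls 3 were less stable: Mark1 lost its call in 10, Mark4 in 7 and Gsk3b in 6 of 17 alternatives. Mapk10 (JNK3), a stress kinase with MAPs and stathmins among its substrates, fell from 331.1 ± 27.2 to 160.1 ± 13.5 CPM (log2 fold change -1.05, edgeR adjusted p = 0.000114). Mark3, of the family that phosphorylates MAPs in their microtubule-binding repeats, rose from 28.1 ± 3.28 to 46.1 ± 5.25 CPM (log2 fold change 0.71, edgeR adjusted p = 0.00402). Of 4 growth-cone membrane genes 2 rose, with Marcksl1 at 3.51 ± 0.54 and 12.5 ± 3.05 CPM (log2 fold change 1.83, edgeR adjusted p = 0.00072). DESeq2 and limma each called 3 of these 4 genes, beside 21.4% and 23.5% of all genes.

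**Figure D5:**
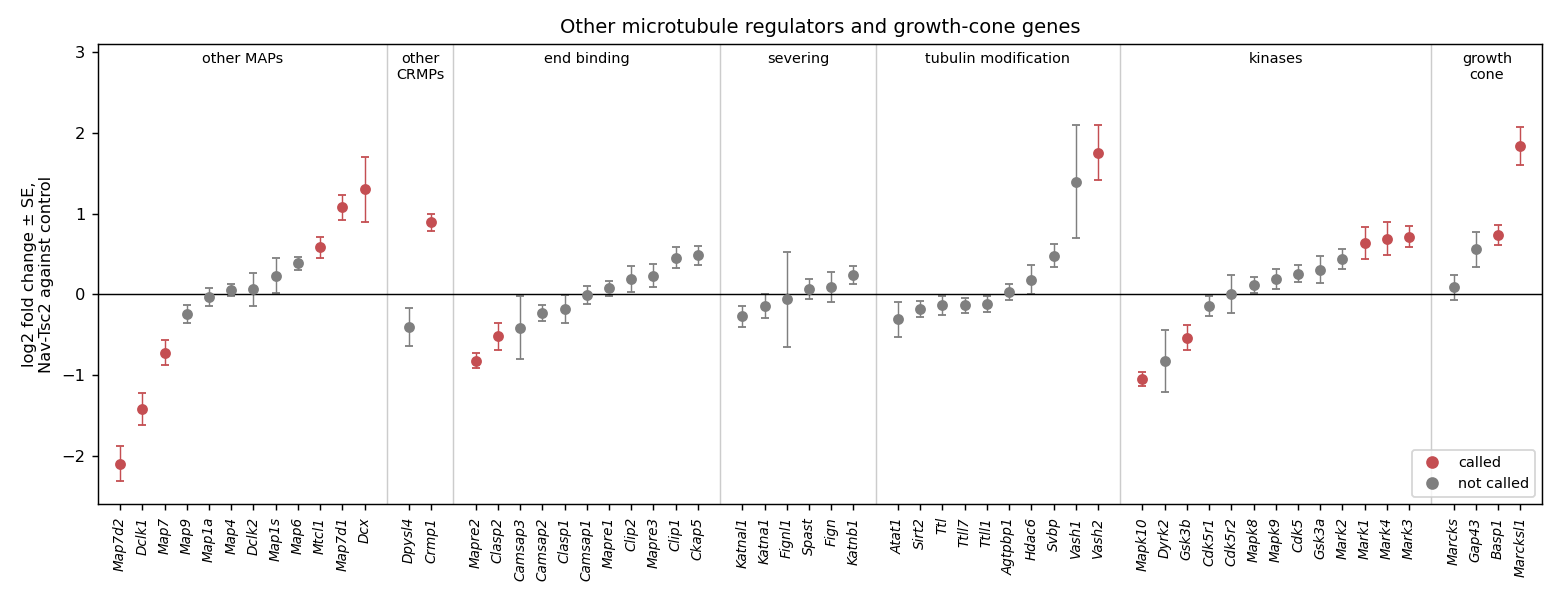
Log2 fold change ± SE of 58 further genes, Nav-Tsc2 against control, by list and sorted within a list, with called genes in red. The called genes reach from -2.10 (Map7d2) to 1.83 (Marcksl1), and none of the severing enzymes is called.

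The gene whose log2 normalized CPM was most like that of each called gene was sought among 8450 others with a mean of at least 10 CPM, over all 24 libraries. These libraries come from 8 mice, and the correlation includes the difference between genotypes. For Stmn4 it was Tnfrsf12a, the TWEAK receptor (r = 0.943, and 0.653 in 12 control and 0.726 in 12 Nav-Tsc2 libraries), which rose from 14.4 to 101.0 CPM (log2 fold change 2.81, edgeR adjusted p = 0.00012). For Map1b it was Kdelr2, a retrieval receptor of the endoplasmic reticulum (r = 0.943, 0.923 and 0.897), and for Mapt it was Gng8, a G protein gamma subunit (r = 0.935, 0.820 and 0.734). The sizes of change differed there. Kdelr2 had a log2 fold change of -0.63 (edgeR adjusted p = 0.0452), beside -1.14 for Map1b. Gng8 went from 91.8 to 6.69 CPM (-3.78, edgeR adjusted p = 0.00157), beside -0.81 for Mapt. For Dpysl2 it was Gsk3b, which encodes a kinase that phosphorylates CRMP2 (r = 0.970, 0.955 and 0.934). Gsk3b was at 3389 CPM in control and 2338 CPM in Nav-Tsc2 mice (log2 fold change -0.54, SE 0.15, edgeR adjusted p = 0.0329).

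Markers of other states and cells also differed. Beside the counts by edgeR that follow, 17.1% of all tested genes were called, 8.00% lower and 9.12% higher. Of 6 genes induced by axon injury, 5 rose in Nav-Tsc2 mice (Atf3, Sprr1a, Ecel1, Gal and Sox11) and Jun did not pass, and their summed level went from 466.3 to 1100 CPM in control to 2684 to 3689 CPM in Nav-Tsc2 mice. Atf3 alone was at 76.0 and 434.0 CPM (log2 fold change 2.51, edgeR adjusted p = 0.000114). Of 8 nociceptor genes 2 fell, Calca among them, 1 rose (Prph, 901.7 and 1481 CPM) and 5 did not pass. The sum of the 8 went from 9505 to 17709 CPM in control to 5062 to 7283 CPM in Nav-Tsc2 mice. Its largest part was Calca (means 10162 and 2557 CPM), so the fall of the sum follows Calca and does not describe the list. Among 5 endothelial genes 3 were tested and rose, of which Kdr lost its call in 9 of 17 alternatives, with a sum of 0.326 to 1.79 CPM in control and 7.71 to 20.0 CPM in Nav-Tsc2 mice, and the defining markers Pecam1 and Cdh5 were near 0 in both (at most 0.422 CPM in a group mean). Of 6 macrophage genes 3 were tested and Cx3cr1 rose, with a sum of 0.633 to 4.50 CPM in control and 6.09 to 15.8 CPM in Nav-Tsc2 mice, while Ptprc, C1qa and Adgre1 were at 0.203 CPM or less in the group means. Csf1r was higher in Nav-Tsc2 mice without passing (0.803 and 3.71 CPM, log2 fold change 2.21, edgeR adjusted p = 0.119). Aif1 did not pass either (0.870 and 1.10 CPM, edgeR adjusted p = 0.834). None of the 4 satellite glia, 7 Schwann cell, 4 myelinated neuron, 5 fibroblast and 3 tested red blood cell markers was called by edgeR. At an unadjusted p under 0.05 these lists held 0, 1, 1, 0 and 3 genes (beside 33.7% of all genes), DESeq2 called 0, 1, 1, 0 and 1 (21.4%), and limma called 0, 3, 1, 2 and 2 (23.5%). The sums overlapped between genotypes except for red blood cells (1.63 to 2.80 CPM in control and 0.473 to 0.672 CPM in Nav-Tsc2 mice). The part of these differences in the results for Stmn4, Map1b, Mapt and Dpysl2 was not tested.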

How the data were processed

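RNA was measured in 24 libraries of FACS-sorted cells. Per the labels and the study's methods, cDNA was amplified by PCR with no molecular identifiers and read as single 50-base reads. Alignment was to mm10 by STAR, and HTSeq gave the raw counts of reads per gene that the authors deposited for each library. Versions and strand setting are not given in the sources used here, so overlapping and antisense genes cannot be told apart. On average 48.8% ± 1.20 (SD, 12 libraries) of reads in control and 51.1% ± 1.94 in Nav-Tsc2 libraries were assigned to no gene and stayed out of totals and tests. A further table of the authors' comparison, with DESeq2 fold changes, p-values and normalized values per mouse, was not used.

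Identifiers were matched to symbols of GENCODE vM21 (47224 of 47643), and lengths and positions came from its GRCm38 models, the assembly that mm10 names. The 3 libraries of a mouse were summed. The main test was the quasi-likelihood F-test of edgeR 4.0.16 in R 4.3.3, with TMM scaling and the filterByExpr filter, and Benjamini-Hochberg adjustment over 17178 genes. The mice are the replicates, and p-values of edgeR and DESeq2 rest on 4 against 4 mice unless a mouse was left out. SE is the log2 fold change over the square root of F. The test was checked on simulated counts. Sequences were aligned with MAFFT 7.526. Alternatives used DESeq2 1.42.0, limma 3.58.1, other scalings, no filter, a replicate block, a sex term, equally weighted libraries, each mouse left out and, added after the data were seen, control mouse 3 without its library A.

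The 10 genes, the lists and the tests were chosen with earlier results of these data known. Named were all 10 genes, Tsc2, in each wider list the 1 called lower and the 1 called higher that had the smallest adjusted p, and for each called gene the gene most like it over the 24 libraries. Marker genes and genes whose calls were unstable were named after their values were seen. Some sequences and a marker gene are not reported here.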

Additional observations from a re-analysis of the deposited data

Results flagged for a closer look

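For Stmn1 the sexes moved in opposite directions: both male Nav-Tsc2 mice (157.3 and 144.6 CPM) lay below both male controls (173.2 and 157.7 CPM), and both female Nav-Tsc2 mice (158.1 and 160.3 CPM) lay above both female controls (120.4 and 138.0 CPM). The genotype effect in males minus that in females was -0.43 on the log2 scale (SE 0.16, edgeR unadjusted p = 0.0277, adjusted p = 0.467), so the difference failed the correction over all genes. No mouse stood apart from the others of its genotype by the ratio of gap to range in the 20 groups of 4 values examined (10 genes in 2 genotypes), where chance gives about 1 in 20.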

How the results depend on the processing

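Stmn4, Map1b and Mapt kept their direction and their call in all 17 alternative fits each, with log2 fold changes over the fits that left out 1 mouse from 2.49 to 3.03, from -1.30 to -0.87 and from -0.88 to -0.77. Dpysl2 stayed lower in all fits but fell short of the fold limit with the replicate block (-0.50, at -0.49995 before rounding) and with sex as a covariate (-0.49), and ranged from -0.58 to -0.43 with 1 mouse left out. Map2 was called by DESeq2 (-0.75) and by limma on 24 libraries (-0.66), and ranged from -0.96 to -0.60 with 1 mouse left out. Dpysl5 ranged from 0.43 to 0.59, and its adjusted p from 0.00987 to 0.0841, with 1 mouse left out. Stmn3, called in none of these fits, changed sign with sex as a covariate (3.3e-05), equally weighted libraries (0.013) and limma (0.0065), and ranged from -0.10 to 0.065 with 1 mouse left out, and Stmn1 from -0.021 to 0.16. Of the 10 genes 2 to 4 were called lower and 1 to 2 higher with 1 mouse left out, and 2 were called higher with no fold limit. Over all genes limma on 24 libraries called 1339 lower and 2705 higher (main: 1374 and 1567), and its median log2 fold change was 0.14, a shift of over 0.1 from the main fit. With 1 mouse left out, 995 to 1577 genes were called lower and 1150 to 1925 higher.

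The replicate numbers were not treated as pairs: over 8445 genes the deviations of same-numbered mice from their genotype means correlated at r = 0.101, 0.121, 0.0341 and 0.124, and differently numbered mice of the same sex did so at up to 0.124 (control 4 with Nav-Tsc2 3) and 0.120 (control 1 with Nav-Tsc2 2). The third pair was under 0.1, and not every mouse correlated best with its own number. In the fit with the replicate block, 2 of the 10 genes were called lower and 1 higher, and 1116 of all genes lower and 1329 higher, and the adjusted p of Dpysl5 was 0.0897. Of the 58 further genes, 6 fell and 7 rose with that block. Without library A of control mouse 3, an alternative added after the data were seen, 3 of the 10 genes were called lower and 1 higher. The call of Kdelr2, like that of Gsk3b, was lost in 6 of 17 alternatives. With the longest transcript as the length, 15 of 20 family shares moved by more than their SD over mice. Counts per mouse were at least 943 for each of the 10 genes, and with no molecular identifiers these counts include PCR copies. Precision is limited by 4 mice per genotype and by 100 cells per library.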
